A study of Homo sapiens with 4 samples.

Results

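The insulin-like growth factor (IGF) system was examined through 10 genes: the ligand gene IGF2, the receptor genes IGF1R and IGF2R, and the binding protein genes IGFBP1 to IGFBP7. They were chosen by name, with earlier results of these data known. Every probe set annotated with exactly one of these symbols was used. Of the 10 genes, 9 had such a probe set, 29 probe sets in all, out of 18132 genes and 44988 probe sets with 1 symbol. IGF2 had none, because its 6 probe sets also carried the symbol of the readthrough gene INS-IGF2, and its level is not reported.

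The study profiled U87MG, an established human glioblastoma cell line, on human PrimeView arrays, short-oligonucleotide chips that read each gene with 1 or more probe sets. The 2 NeuroD2 samples came from cells transfected with an expression vector for NeuroD2, a basic helix-loop-helix transcription factor of neuronal differentiation, and the 2 control samples from cells given the PCMV control vector. All 4 samples were grown at 0.2% oxygen and harvested 48 hours after transfection. Both groups thus share the cell line, the low oxygen and the transfection, and the labels give neither the share of cells that took up a vector nor how the cultures were kept apart. The p-values therefore measure the spread between these 4 samples, and fewer cells expressing a gene cannot be told apart from less RNA per cell.

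In this system IGF1 and IGF2 signal through the tyrosine kinase encoded by IGF1R, which acts through insulin receptor substrates, PI3 kinase and AKT on growth and survival. IGF2R binds IGF2 without such signalling and carries it to lysosomes, together with enzymes tagged by mannose 6-phosphate. The secreted binding proteins hold IGFs outside the cell, and proteases such as pappalysin-1 release them by cleaving the binding protein. IGFBP7 binds IGFs only weakly and is also known as an extracellular protein of glioblastoma blood vessels.

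NEUROD2 itself was read at levels of 7.37 and 7.82 (log2) in the NeuroD2 samples, against 5.46 and 5.35 in the control samples, on the brightest of its 3 probe sets. The groups did not overlap, and the difference was 2.19 (95% interval 1.82 to 2.57, adjusted p = 0.0044 by limma). Dropping control replicate 1 raised the adjusted p to 0.141 and dropping control replicate 2 raised it to 0.147. Its other probe sets differed by -0.07 and -0.21, and averaging the 3 gave 0.64 (adjusted p = 0.013). Over all 18132 genes 864 passed an adjusted p of 0.05, 328 higher and 536 lower with NeuroD2. Hybridisation spikes, control RNAs added to every array, were 0.39 higher on average on the NeuroD2 arrays (10.12 ± 0.02 against 9.73 ± 0.24, SD, n = 2 each), and 0.22 higher without control replicate 1. The 24 poly-A spike probe sets averaged 7.96 and 8.03 on the NeuroD2 arrays, against 6.95 and 7.98 on the control arrays, so control replicate 1 stood apart. Their part in the gene differences was not tested.

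The label of a glioblastoma line was set against 12 measured markers. VIM lay between 14.1 and 14.2 and CD44 between 12.7 and 12.9 on the 4 arrays. ANXA1, S100A6, TNC and FN1 lay between 10.9 and 13.6, and NES and OLIG2 between 6.37 and 7.04. The astrocyte gene GFAP lay between 6.07 and 6.35. SOX2, S100B and CHI3L1 were lower, between 4.36 and 5.43. The mean level of the 12 markers was 9.23 and 9.24 on the NeuroD2 arrays, against 9.25 and 9.22 on the control arrays. The 8 leukocyte markers averaged 4.83 and 4.80 with NeuroD2, against 4.79 and 4.71 in control samples. The leukocyte antigen gene PTPRC had 3.45 and 3.53 with NeuroD2, against 3.23 and 2.95 in control samples. CD68, the brightest of the 8, had 10.21 and 10.13 with NeuroD2, against 10.13 and 10.07 in control samples. The 6 endothelial markers averaged 4.97 and 4.86 with NeuroD2, against 4.84 and 4.74 in control samples, the 5 epithelial markers 4.95 and 4.90 with NeuroD2, against 4.93 and 4.95 in control samples, and the 8 neuronal markers 6.55 and 6.51 with NeuroD2, against 6.64 and 6.59 in control samples. Among the glioblastoma line markers TNC rose (0.45) and CHI3L1 (-0.51) and FN1 (-0.63) fell, among the neuronal ones SNAP25 fell (-0.59), and no leukocyte, endothelial or epithelial marker passed. The files hold no detection calls, so no gene was called absent.

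The upstream sequences of 3 members are shown because the transfected factor belongs to a family that binds E-boxes, written CANNTG. RefSeq windows (GRCh38.p14) were held for 7 of the 10 members, 9 windows in all, and the 250 bases before the start were read on the gene's strand. IGF2, IGFBP1 and IGFBP7 were not matched. Among the matched members IGFBP6 and IGF2R held the probe sets with the most negative and the most positive difference, and IGFBP4 held the one CAGATG among the member windows. E-boxes are in capitals. IGFBP6 is shown at chr12:53097417-53097666, IGF2R at chr6:159968832-159969081 and IGFBP4 at chr17:40443200-40443449, all on the plus strand.
IGFBP6: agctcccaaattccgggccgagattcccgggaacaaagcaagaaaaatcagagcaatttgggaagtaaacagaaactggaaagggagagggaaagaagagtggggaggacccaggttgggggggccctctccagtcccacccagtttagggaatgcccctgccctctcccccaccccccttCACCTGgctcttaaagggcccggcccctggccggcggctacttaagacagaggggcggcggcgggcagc
IGF2R: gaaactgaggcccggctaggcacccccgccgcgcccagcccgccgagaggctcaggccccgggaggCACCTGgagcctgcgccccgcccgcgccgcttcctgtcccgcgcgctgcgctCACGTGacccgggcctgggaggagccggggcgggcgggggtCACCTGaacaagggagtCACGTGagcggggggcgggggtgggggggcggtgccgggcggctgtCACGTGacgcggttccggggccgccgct
IGFBP4: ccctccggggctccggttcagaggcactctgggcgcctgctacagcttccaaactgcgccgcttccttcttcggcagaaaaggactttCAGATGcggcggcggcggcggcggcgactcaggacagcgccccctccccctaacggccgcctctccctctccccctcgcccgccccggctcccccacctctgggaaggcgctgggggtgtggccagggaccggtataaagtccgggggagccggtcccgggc
The IGFBP6 window held 1 E-box, CACCTG, starting 69 bases before the start, and the IGF2R window held 5. The IGFBP4 window held 1, CAGATG, starting 162 bases before the start. CANNTG reads the same on both strands and includes CAGATG, which was searched on both strands. An E-box was found in 6 of the 9 member windows, and in 61.8% of all 35116 windows of this length. CAGATG was found in 1 of the 9, and in 12.2% of all windows. The windows of IGF1R and IGFBP5 held no E-box. These matches describe letters in the windows, and no binding was measured.

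Among the 9 measured members, 1 changed with NeuroD2: IGFBP7 fell. That is 11.1% of the members, against 4.77% of all genes called in either direction, 2.96% called lower and 1.81% called higher. IGFBP6 was lower by less and did not pass the test. The other 7 members differed by -0.01 to 0.20 on the log2 scale, with no adjusted p below 0.461. An unadjusted p below 0.05 was found for 2 of the 9 members (22.2%), against 21.8% of all genes, and the groups did not overlap for 3 of the 9, against 50.8% of all genes. The 11.1% called is 1 gene of 9, too few to set the members apart from the genome, and the last shares do not either. The median difference of the members was 0.06, against 0.00 over all genes, and 6 differences were positive and 3 negative.

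**Figure D1:**
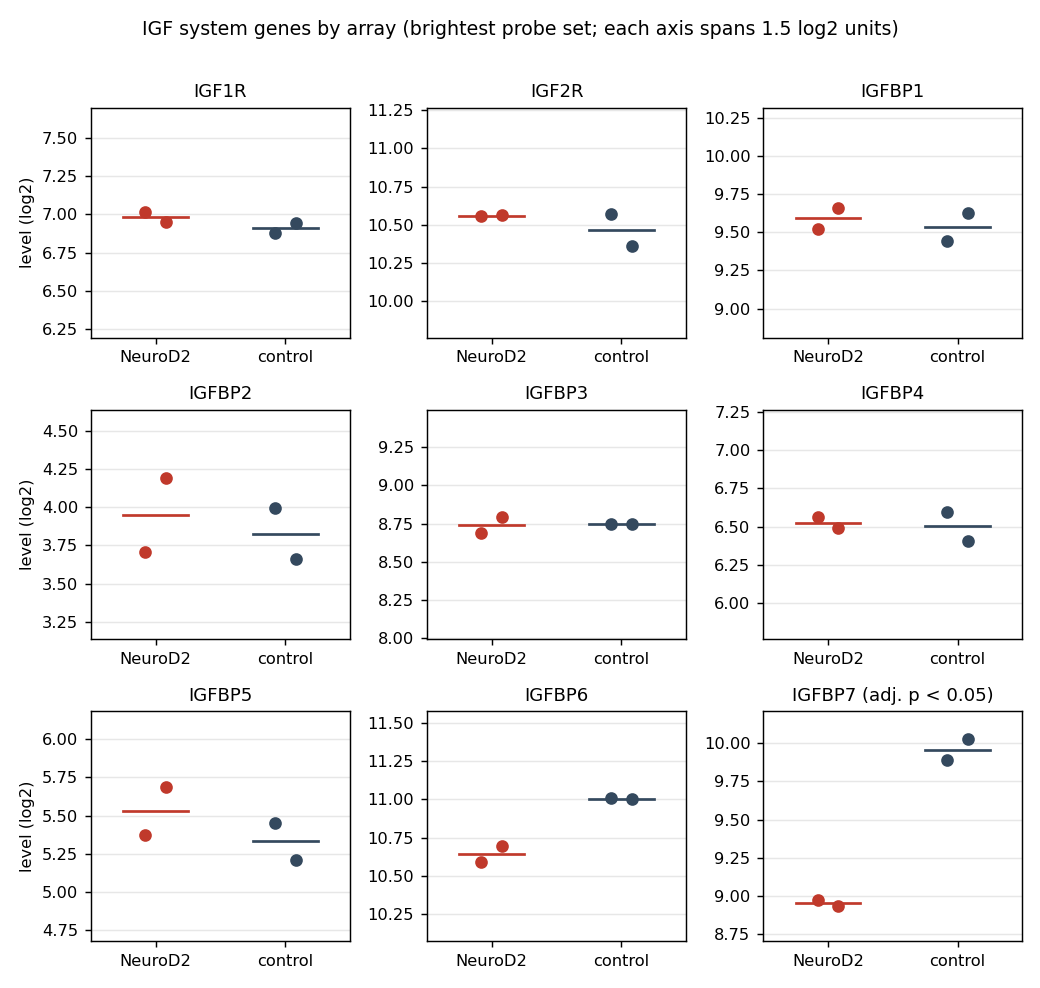
Level (log2) of each of the 9 measured IGF system genes on its brightest probe set, by array, with NeuroD2 arrays left of control arrays; points are arrays, bars are group means, and each axis spans the same range around its own gene. IGFBP7 and IGFBP6 are the genes whose NeuroD2 points both lie below both control points, and IGF1R is the gene with both NeuroD2 points above.

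IGFBP7 was read at 8.98 and 8.94 (log2 level) in the NeuroD2 samples, against 9.89 and 10.02 in the control samples. Both NeuroD2 samples lay below both control samples, and the gap was larger than the spread within either group. The means were 8.96 ± 0.03 with NeuroD2 and 9.96 ± 0.09 with the control vector (SD, n = 2 each), and the gene fell by 0.9995 on the log2 scale (95% interval -1.20 to -0.80, standard error 0.08). This is a level 1.999-fold lower than in control samples, at an adjusted p of 0.0069 by limma. By size it stood at place 37 among the falls of the 18132 genes.

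The call of IGFBP7 rested on all 4 arrays, while the size of its fall did not. Its difference was -1.07 (adjusted p = 0.141) when control replicate 1 was left out and -0.93 (adjusted p = 0.147) when control replicate 2 was left out. Without NeuroD2 replicate 1 it was -1.02 (adjusted p = 0.0582) and without NeuroD2 replicate 2 it was -0.98 (adjusted p = 0.0577). Each of these fits has 1 residual degree of freedom for every gene. So has the fit with the replicate block, in which IGFBP7 passed (limma, adjusted p = 0.0263). The loss of calls when an array was left out was not particular to IGFBP7, and its cause was not tested. A lone array is taken to vary like the other group. The difference was larger without control replicate 1, the array on which the poly-A spikes were low.

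The probe sets of IGFBP7 did not move alike. The fall above was read on the brightest of its 4 probe sets, 11715501_s_at, which also passed in the fit over all probe sets (adjusted p = 0.0100, and 0.0507 with the replicate block). On the third-brightest, 11760203_x_at, levels were 3.05 and 3.03 in NeuroD2 samples, against 3.37 and 3.75 in control samples. These groups did not overlap either, and the difference was -0.52 (adjusted p = 0.109). On 11758721_s_at, the second-brightest, the levels were 4.288 and 4.283 in NeuroD2 samples, against 4.276 and 4.151 in control samples. There the groups did not overlap in the other direction, with a difference of 0.07 (adjusted p = 0.706). On the dimmest, 11760202_at, the difference was -0.05 (adjusted p = 0.882), with levels between 2.86 and 3.18. Averaged over the 4 probe sets, the difference was -0.37 (adjusted p = 0.0345). All but the brightest lay low, between 2.86 and 4.29, where the lowest value on any array was 2.65 and the array medians were 5.98 to 5.99. The average weighs these dim probe sets like the brightest. Without detection calls, how much IGFBP7 signal they hold was not tested. The suffixes s_at and x_at mark probe sets that can match more than 1 transcript. Which transcripts each reads, of IGFBP7 or of another gene, was not tested.

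IGFBP6, whose protein binds IGF2 in preference to IGF1, was read on 1 probe set. Its levels were 10.59 and 10.70 (log2) in the NeuroD2 samples, against 11.009 and 11.003 in the control samples. The groups did not overlap, and the control samples were nearly equal. The difference was -0.36 (95% interval -0.55 to -0.17), or a 1.28-fold lower level, and it missed the threshold (limma, adjusted p = 0.0601). The alternatives fell on both sides, as the plot of settings shows. It passed with an intensity trend in the variance (adjusted p = 0.0052), with dim genes left out (0.0123) and when probe sets were averaged (0.0333), and reached 0.405 without NeuroD2 replicate 1.

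**Figure D2:**
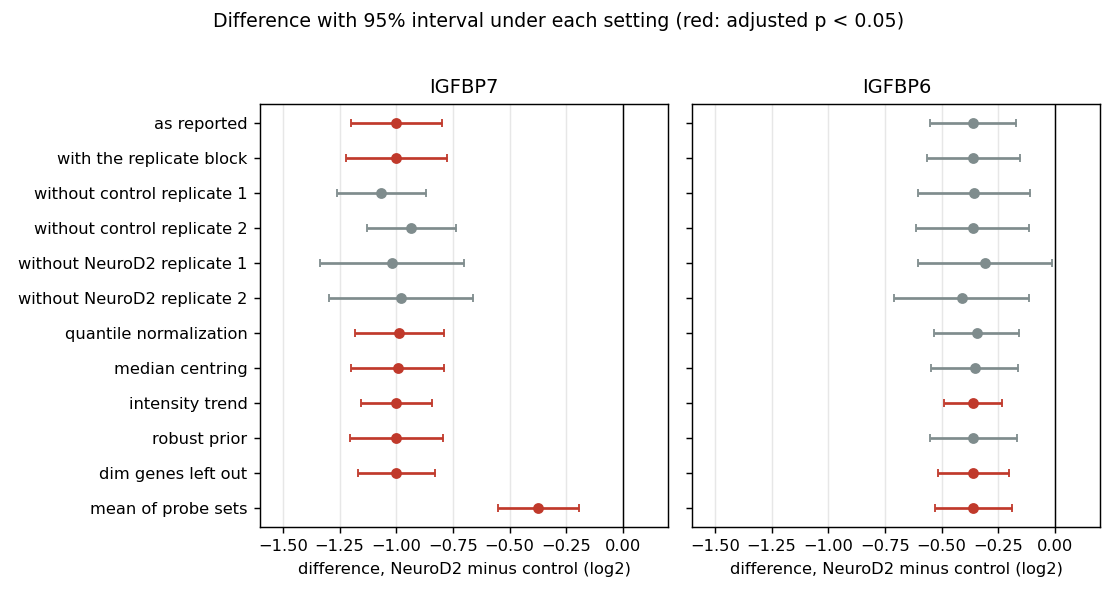
Difference NeuroD2 minus control (log2) with its 95% interval for IGFBP7 (left) and IGFBP6 (right) under the reported setting and each alternative; red marks an adjusted p below 0.05. IGFBP7 stays between -1.07 and -0.93 apart from -0.37 when its probe sets are averaged, and IGFBP6 stays between -0.41 and -0.31.

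The neighbouring genes IGFBP1 and IGFBP3, both known to be induced by low oxygen, showed no passing difference. IGFBP1 had levels of 9.52 and 9.66 with NeuroD2, against 9.44 and 9.62 in control samples. The groups overlapped, and the difference was 0.06 (95% interval -0.18 to 0.30). IGFBP3, the main IGF carrier of blood, had 8.69 and 8.79 with NeuroD2, against 8.75 and 8.75 in control samples. Its difference was -0.01 (95% interval -0.20 to 0.18) on the brighter of its 2 probe sets. On the other probe set both NeuroD2 samples (8.13 and 8.39) were below both control samples (8.49 and 8.43), with a difference of -0.20 (adjusted p = 0.379).

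IGFBP2 and IGFBP5 also neighbour each other in the genome. IGFBP2, often raised in high-grade glioma, had levels of 3.70 and 4.19 with NeuroD2, against 3.99 and 3.66 in control samples. The groups overlapped, and the interval of its difference was the widest of the members (0.12, 95% interval -0.34 to 0.58). IGFBP5, a binding protein that also attaches to extracellular matrix, had 5.37 and 5.69 with NeuroD2, against 5.45 and 5.21 in control samples. The difference was 0.20 (95% interval -0.13 to 0.53, adjusted p = 0.461), and the groups overlapped. Of its 6 probe sets, 5 had a positive difference and 3 had both NeuroD2 samples above both control samples, and 1 was below. The largest was 0.30 (adjusted p = 0.163), with levels of 5.01 and 4.83 with NeuroD2, against 4.67 and 4.56 in control samples. None of the 6 passed.

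IGFBP4, a preferred substrate of pappalysin-1, had levels of 6.56 and 6.49 with NeuroD2, against 6.60 and 6.41 in control samples. Both NeuroD2 samples lay inside the range of the control samples. The difference was 0.02 (95% interval -0.20 to 0.25). Its other 3 probe sets differed by -0.16 to -0.09, the lowest adjusted p of the 4 being 0.396.

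The receptor genes did not pass on their brightest probe sets. IGF1R, the signalling receptor, had levels of 7.01 and 6.95 with NeuroD2, against 6.88 and 6.94 in control samples. The groups were separated by less than 0.01, and the difference was 0.07 (95% interval -0.12 to 0.26, adjusted p = 0.664). Its 7 probe sets differed by -0.19 to 0.28, 5 of them positive, with adjusted p-values from 0.256 to 0.824.

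IGF2R had levels of 10.56 and 10.56 with NeuroD2, against 10.57 and 10.36 in control samples. The groups overlapped, and the difference was 0.09 (95% interval -0.14 to 0.32, adjusted p = 0.639). It was -0.012 when control replicate 2 was left out, and 0.20 when control replicate 1 was. The other 2 probe sets had both NeuroD2 samples above both control samples. On the second-brightest, 11716128_at, the levels were 9.21 and 9.27 with NeuroD2, against 8.90 and 8.93 in control samples, and the difference was 0.32 (95% interval 0.13 to 0.52, adjusted p = 0.0910). On 11753961_a_at the levels were 7.99 and 7.79 with NeuroD2, against 7.58 and 7.61 in control samples, a difference of 0.30 (adjusted p = 0.172). The mean of the 3 probe sets differed by 0.24 (adjusted p = 0.0995).

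Over all 29 probe sets, 1 passed the test in the fit over all probe sets (3.45%), against 3.03% of the 44988 probe sets in either direction and 1.7% lower. The groups did not overlap on 15 of them, 8 higher and 7 lower (51.7%), against 49.4% of all probe sets, 24.9% higher and 24.5% lower. An unadjusted p below 0.05 was found for 7 (24.1%), against 19.9%. These shares, with IGFBP7 included, lay near those of the whole array. Probe sets of 1 gene were read on the same arrays and are not replicates.

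**Figure D3:**
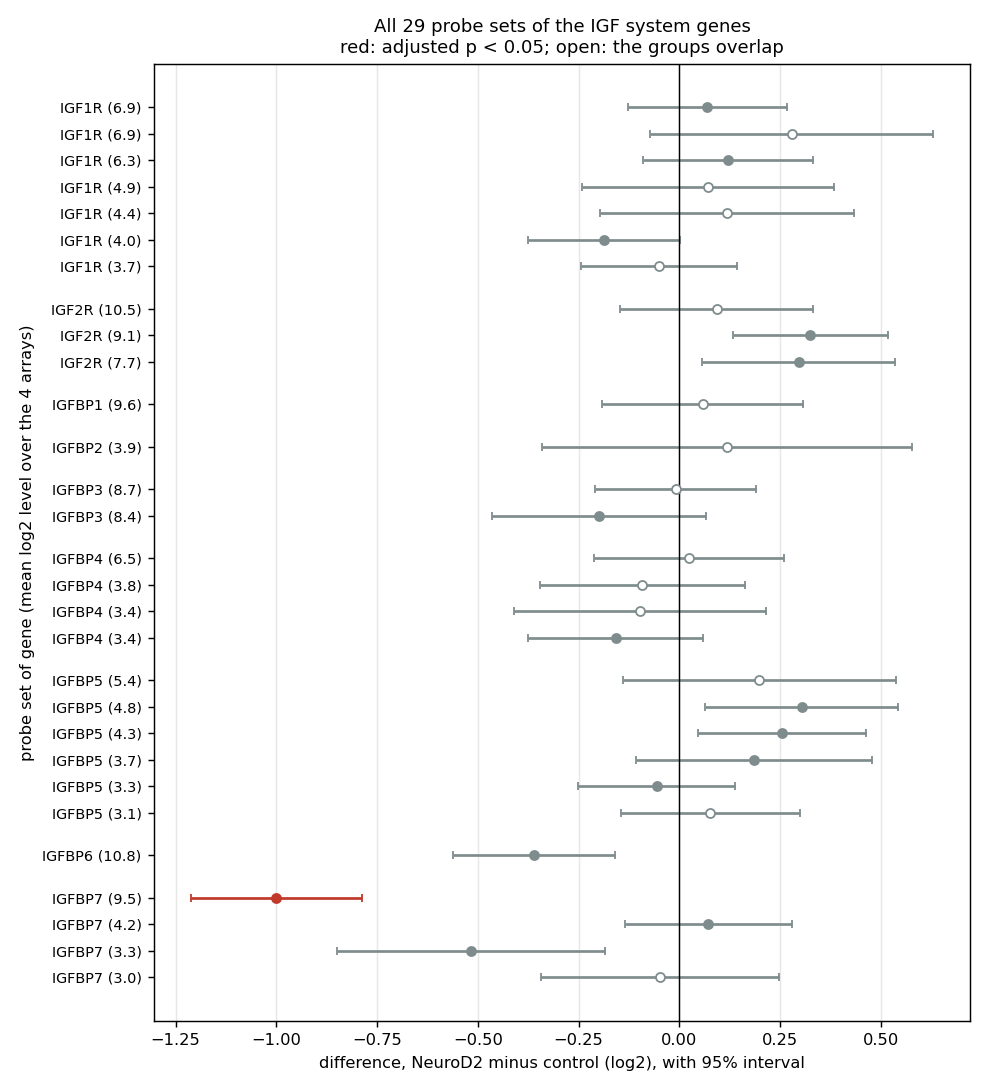
Difference NeuroD2 minus control (log2) with its 95% interval for all 29 probe sets, grouped by gene and ordered within a gene by mean level, which stands in brackets; red marks an adjusted p below 0.05 and open points mark overlapping groups. The brightest IGFBP7 probe set lies at -0.9995, and the 3 IGF2R probe sets lie between 0.09 and 0.32.

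The genes with the values most like IGFBP7 were MAF, NATD1 and SMAD6. Likeness was the distance between the 4 array values after each gene was centred on its own mean, and it was 0.06, 0.07 and 0.08 log2 units for these genes. MAF, a basic leucine zipper transcription factor, was at 9.60 and 9.51 with NeuroD2, against 10.53 and 10.67 in control samples. SMAD6, an inhibitory SMAD of BMP signalling, was at 6.52 and 6.58 with NeuroD2, against 7.47 and 7.65 in control samples. NATD1 was at 5.39 and 5.38 with NeuroD2, against 6.33 and 6.53 in control samples. With 4 arrays this is a description of their levels, and 3 genes were taken by rule.

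Genes that act on or beside the members were taken as 5 lists, of which 95 genes were measured. Of these, 8 rose, 8 fell and 79 did not pass, which is 16.8% called, against 4.77% of all genes. The lists were drawn up when the rises of MMP1, MMP3 and STC1 were already known, so this share is not independent evidence. Their median difference was 0.001, and the median absolute difference was 0.14, against 0.11 over all genes. By limma 0 of the 95 passed without control replicate 1 (35 at an unadjusted p below 0.05) and 0 without control replicate 2 (36). There were 2 without NeuroD2 replicate 1 and 3 without NeuroD2 replicate 2, and 7 with the replicate number as a block. In the fit over all probe sets CCN3, SOCS1, PLAU and PIK3CB, whose values follow, had adjusted p-values of 0.0557, 0.0519, 0.0628 and 0.0646.

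Genes of proteases that cut IGF binding proteins, and of their inhibitors, changed in both directions. Of 18 measured, 4 rose, 3 fell and 11 did not pass, with a median of -0.07. That is 38.9% called, against 4.77% of all genes, in the list that holds MMP1, MMP3 and STC1, whose rises were already known. PAPPA, which encodes pappalysin-1, had levels of 10.954 and 11.0015 with NeuroD2, against 10.04 and 10.18 in control samples. It rose by 0.87 (standard error 0.08, adjusted p = 0.0093), all 8 of its probe sets had positive differences and 7 passed. STC1, an inhibitor of pappalysins, rose by 0.51 (12.99 and 13.03 with NeuroD2, against 12.54 and 12.46 in control samples, adjusted p = 0.0267). The matrix metalloproteinase genes MMP1 and MMP3 rose by 2.43 and 2.40. MMP3 was at 12.78 and 12.82 with NeuroD2, against 10.47 and 10.34 in control samples. The plasminogen activator gene PLAT fell by 0.94 (6.11 and 6.39 with NeuroD2, against 7.18 and 7.20 in control samples), with negative differences on all 7 probe sets. PLAU fell by 0.40 and MMP7 by 0.60. MMP7 was at 3.90 and 3.94 with NeuroD2, against 4.41 and 4.62 in control samples, below the array medians of 5.98 to 5.99. Its second-brightest probe set, with a mean level of 4.21 against 4.22 for the brightest, differed by 0.12. The probe sets of MMP7 split, 2 with positive and 2 with negative differences (-0.14 on average, adjusted p = 0.281). STC1, PLAU and MMP7 were named after their values were seen because they completed the count, and none of these passed with the replicate block (adjusted p = 0.0616, 0.0828 and 0.0509).

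Of 13 related secreted proteins, 0 rose, 2 fell and 11 did not pass (15.4% called, against 4.77% of all genes), with a median of 0.01. CCN2, a matrix-associated growth factor once classed with the IGF binding proteins, fell by 0.67 (8.25 and 8.26 with NeuroD2, against 8.84 and 9.01 in control samples, adjusted p = 0.0189). CCN3, of the same family, fell by 0.43 (9.20 and 9.29 with NeuroD2, against 9.65 and 9.69 in control samples, adjusted p = 0.0409, and 0.0714 with the replicate block). The ligand gene IGF1 had levels of 5.04 and 5.38 with NeuroD2, against 5.11 and 4.90 in control samples, and did not pass (difference 0.21, adjusted p = 0.456). The IGF1 difference was 0.031 when NeuroD2 replicate 2 was left out and 0.38 when NeuroD2 replicate 1 was. INSL3 differed by 0.23 and RLN2 by -0.21, and neither passed.

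Of 45 genes of insulin and IGF receptor signalling, 4 rose, 3 fell and 38 did not pass, with a median of 0.03. The share called was 15.6%, against 4.77% of all genes. IRS2, an adaptor that links both receptors to PI3 kinase, had levels of 7.71 and 7.78 with NeuroD2, against 6.85 and 7.05 in control samples. It rose by 0.79 (standard error 0.09, adjusted p = 0.0153), on both of its probe sets. The related adaptor gene IRS1 did not pass (10.46 and 10.49 with NeuroD2, against 10.26 and 10.42 in control samples, difference 0.13). GRB14, an adaptor that inhibits the insulin receptor, rose by 0.77 (9.89 and 9.84 with NeuroD2, against 8.996 and 9.186 in control samples, adjusted p = 0.0157).

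SOCS1 (0.56) and SOCS3 (0.44), feedback inhibitors of cytokine signalling that also act on insulin receptor substrates, rose. PIK3R3, a regulatory subunit of PI3 kinase, fell by 0.55, the catalytic subunit gene PIK3CB by 0.37 and the AKT phosphatase gene PHLPP2 by 0.55. With probe sets averaged PIK3R3 differed by -0.17 (adjusted p = 0.257) and PHLPP2 by -0.18 (adjusted p = 0.574). None of these 5 genes passed with the replicate block, at adjusted p-values from 0.0612 to 0.0853, and SOCS3, PIK3CB and PHLPP2 were named after their values were seen. INSR, the insulin receptor gene, was at 7.23 and 7.28 with NeuroD2, against 6.97 and 6.99 in control samples, a difference of 0.28 that did not pass (adjusted p = 0.0968). It passed with dim genes left out (adjusted p = 0.0224). Its 5 probe sets differed by -0.12 to 0.44, and averaged over them INSR differed by 0.15 (adjusted p = 0.363).

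**Figure D4:**
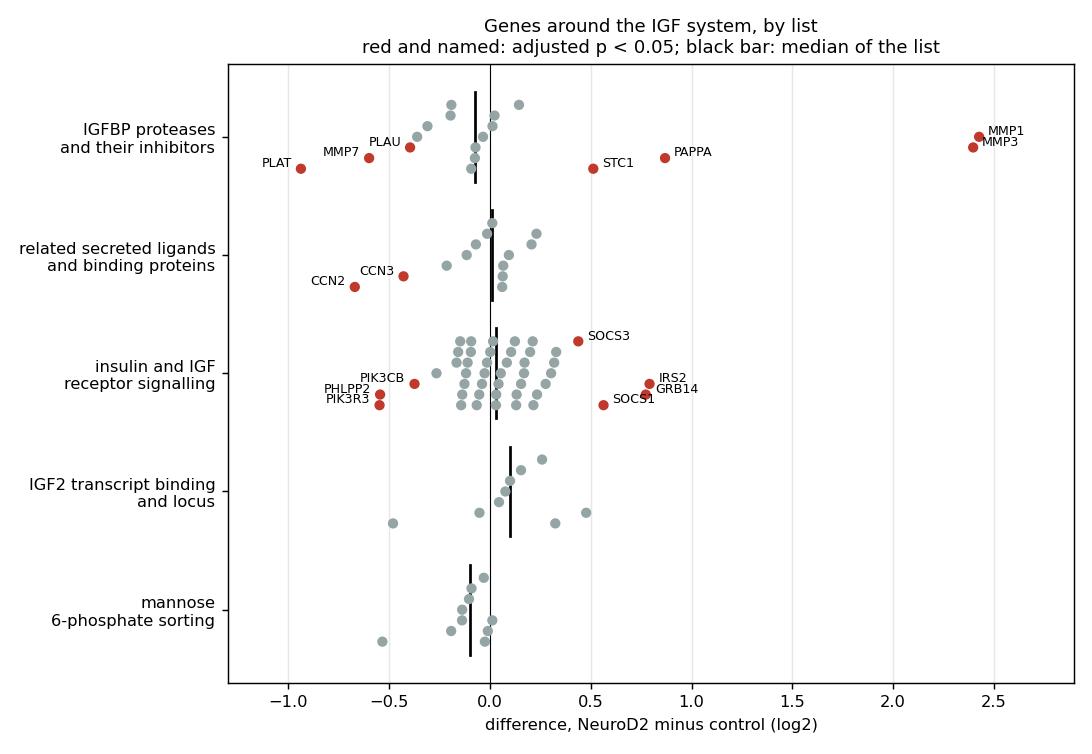
Difference NeuroD2 minus control (log2) of the 95 measured genes around the IGF system, 1 point a gene, in 5 lists; red points with names have an adjusted p below 0.05 and black bars are list medians. MMP1 and MMP3 lie at 2.43 and 2.40, PAPPA at 0.87 and IRS2 at 0.79, and the lists for IGF2 and for mannose 6-phosphate sorting hold no red point.

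No gene passed among 9 genes that bind the IGF2 transcript or act at its locus, or among 10 of mannose 6-phosphate sorting. With 4.77% of all genes called, lists of this size are too small to be set apart from the genome. At an unadjusted p below 0.05 there were 4 (44.4%) and 1 (10%), against 21.8% of all genes. In the first list PLAGL1, a zinc finger factor, differed by -0.48 (8.92 and 8.82 with NeuroD2, against 9.24 and 9.45 in control samples, adjusted p = 0.0545). PLAG1 differed by 0.48 (adjusted p = 0.0709), the antisense transcript gene IGF2-AS by 0.32 (adjusted p = 0.0738) and IGF2BP2 by 0.26. Their probe sets did not move alike, at least 1 of each differing the other way. Averaged over them, PLAG1 differed by 0.18, IGF2-AS by 0.09 and IGF2BP2 by 0.055, and none passed. In the second list GNPTAB, which encodes subunits of the enzyme that starts the mannose 6-phosphate tag, differed by -0.53 (8.69 and 8.81 with NeuroD2, against 9.16 and 9.42 in control samples, adjusted p = 0.0558). VPS29 differed by -0.19, and VPS26A and NAGPA both by -0.14. GNPTAB and PLAGL1 passed with quantile normalization (adjusted p = 0.0447 and 0.0471). They passed too with an intensity trend, with dim genes left out and with probe sets averaged (adjusted p from 0.0089 to 0.0304). PLAG1 and IGF2BP2 passed with an intensity trend and with dim genes left out (adjusted p from 0.0185 to 0.0364). In the fit over all probe sets, 1 of the 4 for GNPTAB was called lower (difference -0.54, adjusted p = 0.0320).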

How the data were processed

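The authors' deposited table holds 49395 probe set values per array, taken to be log2 because they run from 2.65 to 14.3 with nearly equal medians. The sources used here name no software, background correction or normalization. The platform annotation gave 1 gene symbol for 44988 probe sets, several for 1832 and none for 2473, and 102 were Affymetrix controls. Each gene was read on its brightest probe set (mean of all 4 arrays). The test was limma 3.58.1 in R 4.3.3 (lmFit and eBayes, group as the only term, two-sided, 2 residual and 3.84 prior degrees of freedom), with Benjamini-Hochberg adjustment over all 18132 genes, or all probe sets where said, and a threshold of 0.05. The fit was run on data simulated from its own variance model, with independent noise and no shift between arrays. This checks the code, not whether the model holds here. An exact permutation test of 2 against 2 arrays cannot go below 0.333 and was not used.

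The members, lists and named genes were chosen with earlier results of these data known. The named genes were NEUROD2, the members, up to 4 genes of each list with the largest absolute difference, IGF1, INSR, IRS1, IRS2, and the 3 genes nearest to the member with the largest passing fall. Alternatives were the replicate block, each array left out, quantile normalization, median centring, an intensity trend, a robust prior, no dim genes, and other uses of the probe sets. Same-numbered arrays correlated at 0.08 in their deviations from the group means, so the numbers were not taken to pair them.

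Precision is limited by the number of arrays. Some genes of the lists were not analysed here.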

Additional observations from a re-analysis of the deposited data

How the results depend on the processing

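IGFBP7 was lower with NeuroD2 under all 12 alternatives run for it and passed in 8, the exceptions being the 4 fits that left out an array. The count of members that passed was 1, and 0 whenever an array was left out. It was 2 with an intensity trend, with dim genes left out (6 members tested) and with the mean of probe sets, IGFBP6 being the second. Of member probe sets 1 passed, against 0 with the replicate block. With an intensity trend 3 passed, 1 higher and 2 lower, and the same numbers passed with dim probe sets left out. Genes around the system numbered 16, against 7 with the replicate block, 26 with an intensity trend and 0 to 3 with an array left out. Over all genes the count was 864, against 335 with the replicate block, 2056 with an intensity trend, 2081 with dim genes left out and 0 to 66 with an array left out. By limma the count was 0 without either control array, with 4428 genes at an unadjusted p below 0.05 without replicate 1 and 4102 without replicate 2.

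Of the members that did not pass, 5 changed sign with an array left out. Their differences then ran from -0.012 to 0.20 for IGF2R, -0.034 to 0.15 for IGFBP1, -0.12 to 0.36 for IGFBP2, -0.059 to 0.041 for IGFBP3 and -0.072 to 0.12 for IGFBP4, and those of NAGPA from -0.29 to 0.010. IGFBP4 was also -0.080 when its probe sets were averaged. IGF1R, IGFBP5 and IGFBP6 kept their sign under the alternatives run, with ranges of 0.037 to 0.10, 0.043 to 0.36 and -0.41 to -0.31 when an array was left out. The causes were not tested.

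There were 2 arrays a group and no detection calls. On their brightest probe sets, the differences of IGF2R and IGFBP5 could not be separated from the spread between arrays. On the other 2 probe sets of IGF2R (0.32 and 0.30) the groups did not overlap. Of the 6 probe sets of IGFBP5, 3 were higher without overlap and 1 was lower. None of these passed after adjustment in the reported fit over all probe sets. With the replicate block IGFBP7 still passed among genes (adjusted p = 0.0263), but its brightest probe set did not pass among all probe sets (adjusted p = 0.0507).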
